A study of Caenorhabditis elegans with 4 samples.

Results

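The genes described here are 9 genes of piRNA biogenesis in Caenorhabditis elegans: the Argonaute gene prg-1, the transcription factor genes prde-1, tofu-4 and tofu-5, the processing factor genes tofu-6, pid-1, tofu-1 and tofu-2, and the methyltransferase gene henn-1. They were chosen by name for their known role, and all 9 were found among the 18468 genes of the authors' deposited table. RNA came from whole gravid adults of YY1449, a strain mutant for rde-3 (2 libraries), and of N2, the laboratory wild type (2 libraries), the pairs being called biological replicates by the submitters. RDE-3, whose gene the table lists as mut-2, is a nucleotidyltransferase that extends RNAs with alternating U and G. The labels give no allele, no age beyond the stage and no treatment, and each genotype is represented by 1 strain. The mutation and whatever else distinguishes YY1449 from N2 cannot be told apart.

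piRNAs are small RNAs of the germline that guide the Piwi-clade Argonaute PRG-1 to foreign and transposon RNA. In this worm each piRNA is transcribed as its own short capped precursor, which is then cleaved at its leading end, loaded into PRG-1, trimmed at its trailing end and methylated there. Targets recognised by PRG-1 are handed to the siRNA amplification machinery, in which the poly(UG) tails made by RDE-3 mark RNAs as templates. The genes below therefore act upstream of the mutated enzyme, and the comparison shows whether the RNA that encodes the piRNA machinery differed in the mutant.

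The authors deposited, for each gene, its normalized count averaged across libraries, the log2 fold change with a standard error, and an adjusted p. A positive log2 fold change was taken to mean higher in rde-3, because the comparison's name puts the mutant first. The deposited mean is an average of 4 whole read numbers, each divided by the size factor of its library, and it is given with enough digits that the 4 read numbers could be recovered. For each of the 9 genes exactly 1 of the sets of read numbers searched gave the deposited mean and also the deposited fold change, which differed by at most 3.41e-07. The size factors were 1.06 and 0.707 for the deeper and the shallower rde-3 library and 1.42 and 0.963 for the deeper and the shallower N2 library. The recovered libraries carry a genotype but no replicate number, and total depth is unknown. Over the 6165 features with recovered reads and a mean of at least 100, the median absolute log2 difference between libraries of 1 genotype was 0.19 in rde-3 and 0.14 in N2. In the recovered reads the mutated gene mut-2 had 845.7 and 745.3 normalized counts in the rde-3 libraries, against 726.2 and 804.6 in the N2 libraries, so its RNA level does not check the labels, and where its mutation lies is not given.

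Of the 9 piRNA biogenesis genes, only tofu-2 passed an adjusted p of 0.05 over all features in the authors' deposited table, and it fell in the rde-3 animals. The other 8 did not pass, which does not show that they were equal, and their intervals are given below. That is 1 lower and 0 higher, where 17.5% of all 18638 features passed, 8.04% as lower and 9.42% as higher. All 9 genes had means above 100, and among the 7700 features at that level 34.0% passed, 14.9% as lower and 19.1% as higher. The libraries of the genotypes did not overlap for 4 of the 9 genes, namely prde-1, tofu-2, tofu-6 and pid-1. For comparison, 67.5% of the features with recovered reads did not overlap, and 71.7% of those with a mean of at least 100. The labels name no batch, so a block by replicate number is an assumption, and with 4 libraries it leaves little to estimate error from. Which rde-3 library shares a replicate number with which N2 library is not known, and the count under such a block depends on it. In limma-voom with a replicate block, pairing the deeper libraries with each other left tofu-2 alone (24.2% of 10883 features called), while pairing the deeper rde-3 with the shallower N2 library (46.9% called) added prde-1 and pid-1 as lower and prg-1 and tofu-6 as higher. The median log2 fold change of the 9 genes was -0.10 in the authors' deposited table, with values on both sides of 0, and that of the features with a mean of at least 100 was 0.06. The median absolute log2 fold change was 0.20 for the 9 genes and 0.34 for those features.

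**Figure D1:**
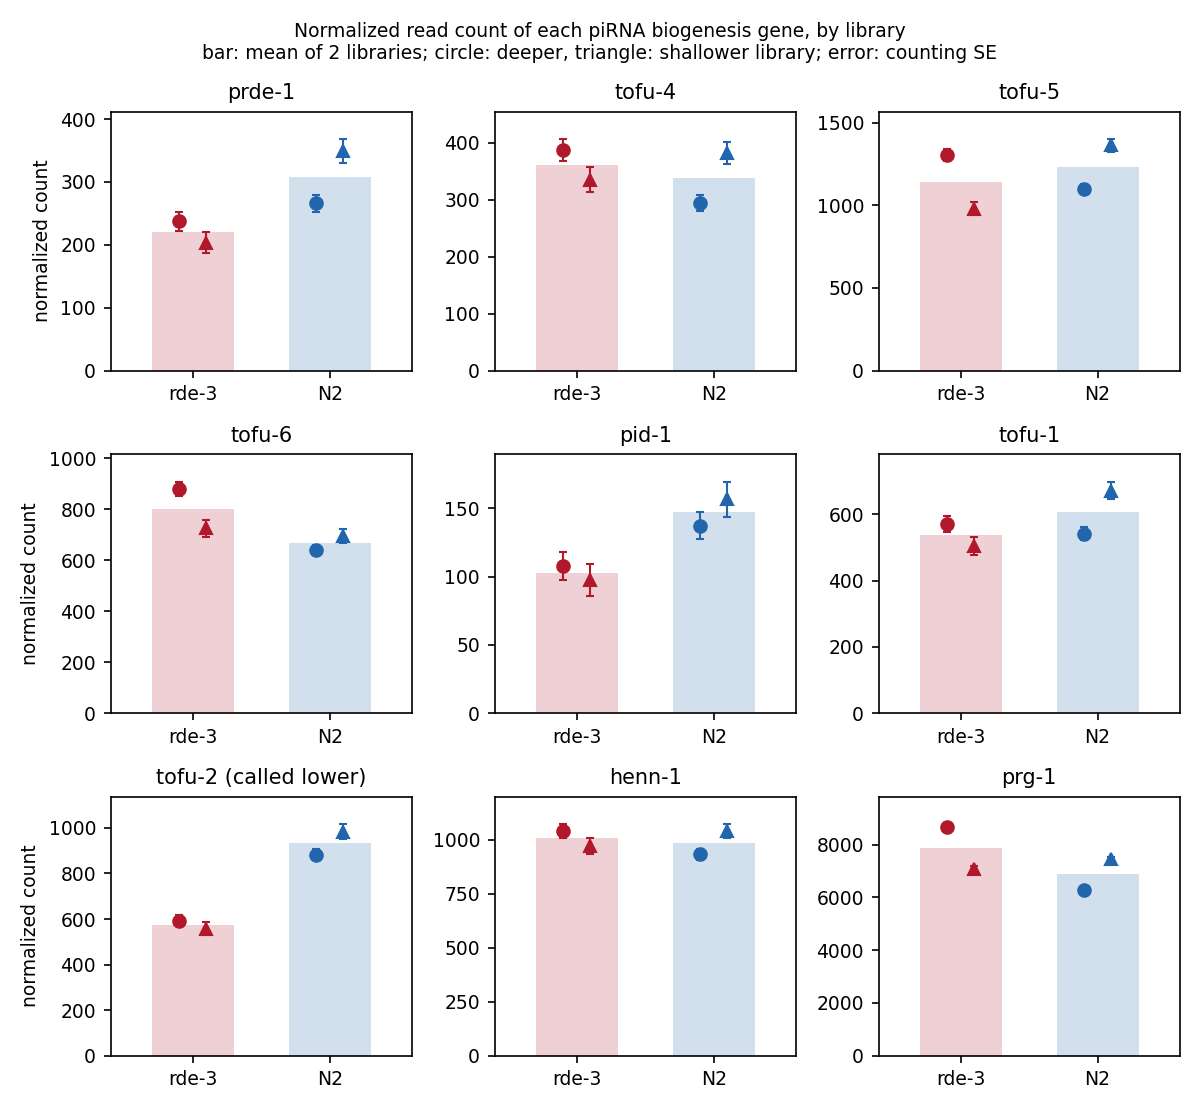
Normalized read count (vertical axis, from 0) of each gene in the rde-3 libraries (left, red) and the N2 libraries (right, blue), with bars at the mean of 2 libraries and error bars for counting error only. For tofu-2 both rde-3 libraries, at 591.9 and 557.2, sit below both N2 libraries, at 882.8 and 984.2.

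TOFU-1 and TOFU-2 belong, with the Schlafen-domain proteins SLFL-3 and SLFL-4, to the nuclease that cleaves the leading end of piRNA precursors. The gene tofu-2 (chromosome V, 7049434 to 7051248, minus strand, build WBcel235, 8 exons) was read at 591.9 and 557.2 normalized counts in the rde-3 libraries, against 882.8 and 984.2 in the N2 libraries. The groups did not overlap, and the gap between them was larger than the difference between libraries of either genotype. These values rest on 625 and 394 reads in the rde-3 libraries and 1252 and 948 in the N2 libraries. In the authors' deposited table tofu-2 fell by 0.70 ± 0.16 on the log2 scale (SE, 2 libraries per genotype, adjusted p = 0.000226). Its level in rde-3 animals was thus 61.7% of that in N2, with a 95% interval of 49.6 to 76.65%. A count model on the recovered reads, limma-voom, called 34.2% of 10883 features, and of the 9 genes only tofu-2 (log2 -0.69, adjusted p = 0.000792). When each of the 4 libraries was left out in turn, its log2 value for tofu-2 was -0.77 to -0.62. A lower log2 fold change than that of tofu-2 was found for 9.1% of the 7700 features of mean 100 or more.

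Its partner tofu-1 (chromosome V, 9981147 to 9982766, plus strand, 4 exons) had 570.1 and 503.5 normalized counts in the rde-3 libraries, against 541.5 and 671.7 in the N2 libraries. The groups overlapped, and the log2 fold change in the authors' deposited table was -0.17 ± 0.18 (adjusted p = 0.696), with a 95% interval of 69.2 to 114.0% of the N2 level. The ratio of tofu-2 to tofu-1 reads within a library, which does not depend on the size factors, was 1.04 and 1.11 in the rde-3 libraries, against 1.63 and 1.47 in the N2 libraries. Of 14 such ratios between genes of a step, chosen after the values were seen, 13 did not overlap between the genotypes, so this is no trait of the ratios printed here. The exception, slfl-3 to tofu-1, was 0.372 and 0.309 in the rde-3 libraries, against 0.384 and 0.371 in the N2 libraries. Several of the 14 share tofu-6 or snpc-4 as denominator, both with higher counts in the rde-3 libraries, so they are not separate observations. Ratios of other gene pairs were not computed. The other genes of this nuclease had lower levels per kilobase, 161.9 for slfl-3 and 106.5 for slfl-4, and did not pass. In the authors' deposited table slfl-3 had a log2 fold change of -0.30 ± 0.26 (adjusted p = 0.582) and slfl-4 one of 0.29 ± 0.29 (adjusted p = 0.662).

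The precursors are transcribed from promoters bound by a complex of PRDE-1, TOFU-4, TOFU-5 and SNPC-4, the last a subunit shared with small nuclear RNA genes. None of these genes passed, and prde-1 came nearest among the 3 of the set. The gene prde-1 (chromosome V, 15538244 to 15547086, plus strand, 8 exonic blocks) had 237.7 and 203.6 normalized counts in the rde-3 libraries, against 265.8 and 348.8 in the N2 libraries. The rde-3 libraries lay below the N2 libraries, but the nearest pair differed by less than the N2 libraries did from each other. Its log2 fold change in the authors' deposited table was -0.47 ± 0.24 (adjusted p = 0.192), which gives 72.2% of the N2 level with a 95% interval of 52.1 to 99.99%. Without the deeper rde-3 library limma-voom gave prde-1 a log2 value of -0.56, and with all 4 libraries it did not call the gene (adjusted p = 0.0735).

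The gene tofu-4 (chromosome I, 4824904 to 4826639, minus strand) had 387.3 and 335.2 normalized counts in the rde-3 libraries, against 294.7 and 382.1 in the N2 libraries. The gene tofu-5 (chromosome I, 7069440 to 7070665, plus strand) had 1303.0 and 980.0 normalized counts in the rde-3 libraries, against 1098.5 and 1361.1 in the N2 libraries. For both genes the genotypes overlapped and the spread within a genotype exceeded the difference between the means. In the authors' deposited table the log2 fold changes were 0.10 ± 0.22 for tofu-4 (adjusted p = 0.876) and -0.10 ± 0.17 for tofu-5 (adjusted p = 0.841), with 95% intervals of 79.9 to 144.0% and 73.5 to 117.9% of the N2 level. The remaining subunit gene, snpc-4, had 2197.9 and 1958.7 normalized counts in the rde-3 libraries, against 1493.4 and 1791.9 in the N2 libraries. In the authors' deposited table its log2 fold change was 0.34 ± 0.14 (adjusted p = 0.0862), and limma-voom on the recovered reads gave an adjusted p of 0.0391. The ratio of prde-1 to snpc-4 reads was 0.108 and 0.104 in the rde-3 libraries, against 0.178 and 0.195 in the N2 libraries.

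**Figure D2:**
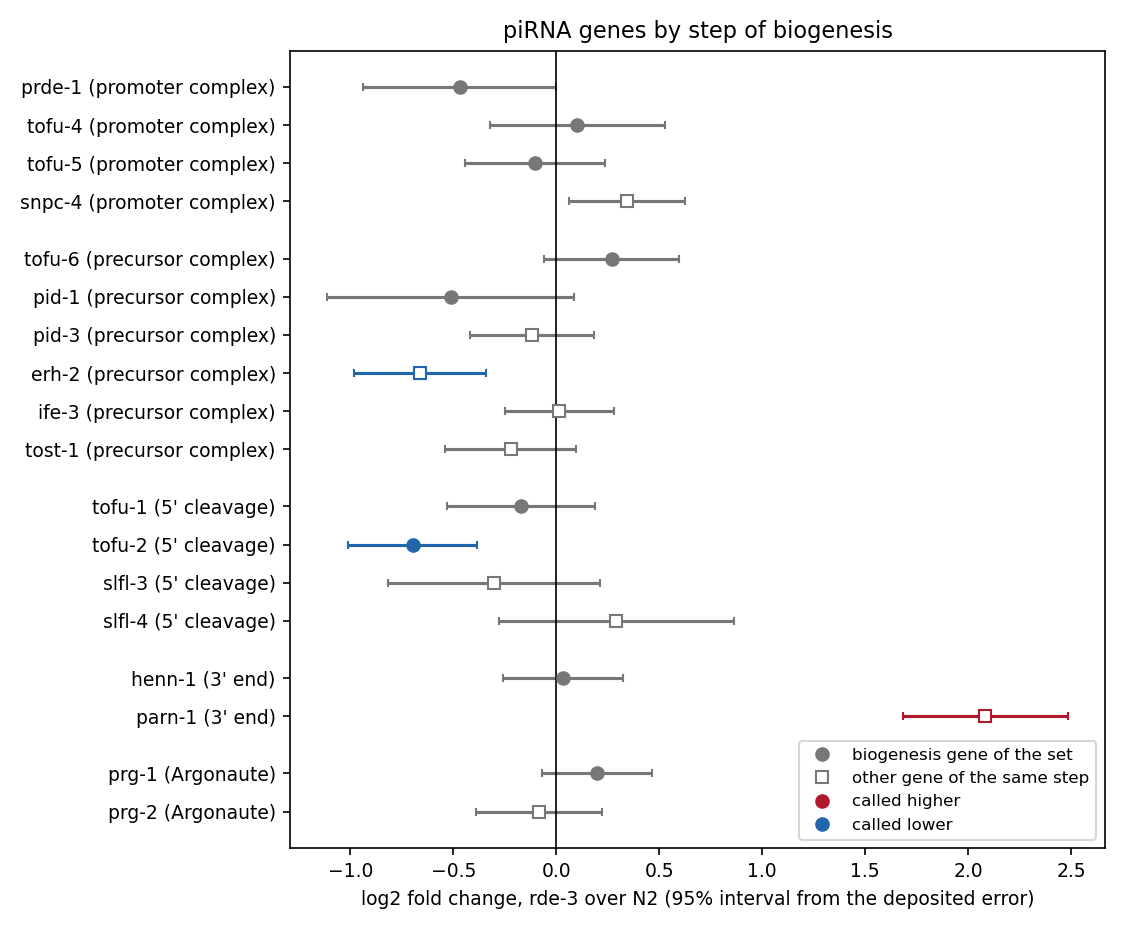
Log2 fold change, rde-3 over N2 (horizontal axis), with its 95% interval from the deposited standard error, for the 9 biogenesis genes (filled circles) and other genes that act at the same step (open squares), top to bottom in the order of the steps. Blue marks tofu-2 and erh-2, called lower, red marks parn-1, called higher at log2 2.08, and grey marks genes that did not pass.

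TOFU-6 and PID-1 are subunits of the cytoplasmic complex that receives capped precursors. TOFU-6 and PID-3 build its core with ERH-2, IFE-3 binds the cap, and PID-1 directs the complex to piRNAs while TOST-1, which takes its place, directs it to a function in embryos. The gene tofu-6 (chromosome II, 5421248 to 5422737, plus strand) had 879.7 and 725.5 normalized counts in the rde-3 libraries, against 640.9 and 695.6 in the N2 libraries. The shallower rde-3 library lay only just above the N2 libraries, and the log2 fold change of 0.27 ± 0.17 did not pass in the authors' deposited table (adjusted p = 0.343). Without the shallower rde-3 library limma-voom gave tofu-6 a log2 value of 0.40, and with all 4 libraries it did not call the gene (adjusted p = 0.147).

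The gene pid-1 (chromosome II, 7689681 to 7690556, minus strand) had the fewest reads of the 9, with 108.0 and 97.6 normalized counts in the rde-3 libraries, against 137.5 and 156.8 in the N2 libraries. The rde-3 libraries were lower, on 529 reads in all 4 libraries, but the deposited error of pid-1 was the largest of the 9 genes. Its log2 fold change in the authors' deposited table was -0.51 ± 0.31 (adjusted p = 0.308), with a 95% interval of 46.3 to 106.3% of the N2 level. A change of at least 1.75-fold would have been needed for pid-1 to pass at its deposited error, against 1.28-fold for prg-1, so a fall as large as that of tofu-2 could not have been called in pid-1.

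Of the other subunits of this complex erh-2 fell, a gene whose RNA the table lists under its sequence name, F35G12.11. It had 539.8 and 516.2 normalized counts in the rde-3 libraries, against 794.6 and 881.4 in the N2 libraries, and a log2 fold change of -0.66 ± 0.16 in the authors' deposited table (adjusted p = 0.000698). That call was lost after a trend with transcript length was removed (log2 -0.31, adjusted p = 0.234), whereas tofu-2 kept its call (log2 -0.67, adjusted p = 0.00056). The trend at the length of tofu-2 was only -0.029. Its removal could thus hardly change the call of tofu-2, and it does not show which fall is firmer. The genes pid-3, ife-3 and tost-1 had log2 fold changes of -0.12 ± 0.15, 0.015 ± 0.14 and -0.22 ± 0.16 in the authors' deposited table, and none passed. Relative to tofu-6, reads of pid-1 stood at 0.123 and 0.135 in the rde-3 libraries, against 0.215 and 0.225 in the N2 libraries. Reads of erh-2 relative to tofu-6 stood at 0.614 and 0.712 in the rde-3 libraries, against 1.24 and 1.27 in the N2 libraries. Both ratios also carry the higher tofu-6 counts of the rde-3 libraries.

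HENN-1 methylates the trailing end of piRNAs and of the siRNAs bound by ERGO-1, which protects them. The gene henn-1 (chromosome III, 8232651 to 8234611, plus strand) had 1040.7 and 973.0 normalized counts in the rde-3 libraries, against 932.8 and 1039.2 in the N2 libraries. The 4 libraries interleaved, and henn-1 had the smallest absolute log2 fold change of the 9 genes, 0.03 ± 0.15 in the authors' deposited table (adjusted p = 0.942). Its 95% interval, 83.5 to 125.2% of the N2 level, was also narrow, so a 1.31-fold change would have been called.

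Among genes outside the set that act at this step, the trimming enzyme gene rose. The gene parn-1 (chromosome V, 12692486 to 12695255, minus strand), which encodes the exonuclease that shortens the trailing end of precursors, had 787.9 and 623.7 normalized counts in the rde-3 libraries, against 160.8 and 173.4 in the N2 libraries. In the authors' deposited table it rose 4.24-fold (log2 2.08 ± 0.20, adjusted p = 3.56e-22), and the rise held in limma-voom without any 1 library (log2 1.91 to 2.24). The ratio of parn-1 to henn-1 reads was 0.757 and 0.641 in the rde-3 libraries, against 0.172 and 0.167 in the N2 libraries. parn-1 shares 54 bases with a gene on the other strand, frpr-15, whose mean of 3.80 in the authors' deposited table is far below that of parn-1.

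**Figure D3:**
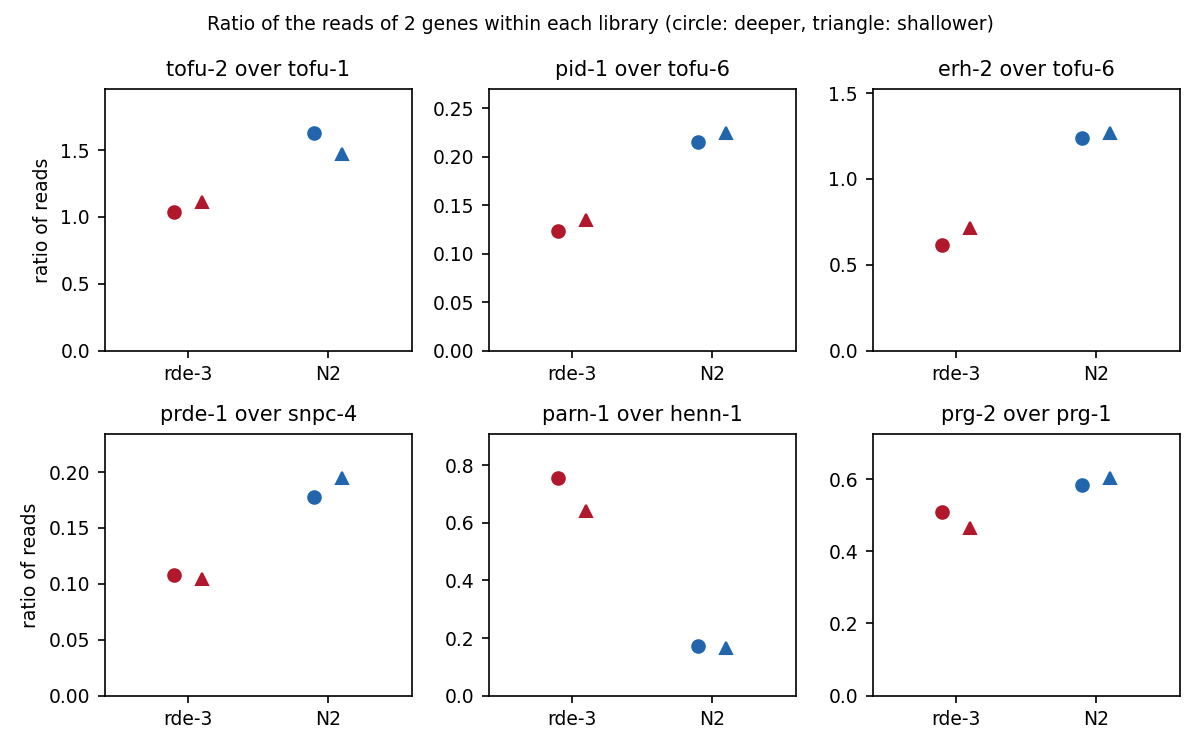
Ratio of the reads of 2 genes of the same step (vertical axis, from 0) within each rde-3 library (left, red) and each N2 library (right, blue). The ratio of tofu-2 to tofu-1 was 1.04 and 1.11 in the rde-3 libraries and 1.63 and 1.47 in the N2 libraries. These pairs were chosen after the values were seen and carry no test.

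The Argonaute gene prg-1 (chromosome I, 7585329 to 7588367, minus strand, 9 exons) was by far the most abundant of the set. It had 8685.7 and 7088.0 normalized counts in the rde-3 libraries, against 6295.8 and 7463.6 in the N2 libraries. The genotypes overlapped, and its log2 fold change of 0.20 ± 0.14 did not pass in the authors' deposited table (adjusted p = 0.423), with a 95% interval of 95.2 to 138.3% of the N2 level. The close paralog prg-2, which the annotation used here did not match by name, had 4411.0 and 3297.9 normalized counts in the rde-3 libraries, against 3667.9 and 4506.8 in the N2 libraries. Reads from the near-identical stretches of these genes may be divided between them by the counting, which is not described, so each single value is uncertain. Summed, the pair had 13096.8 and 10386.0 normalized counts in the rde-3 libraries, against 9963.7 and 11970.4 in the N2 libraries, which overlap as well. The share of the sum assigned to prg-1 was 66.3 and 68.2% in the rde-3 libraries, against 63.2 and 62.4% in the N2 libraries.

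Per kilobase of exonic sequence, the mean normalized count over the 4 libraries was 2769.4 for prg-1, 1165.9 for tofu-5, 653.0 for henn-1, 608.8 for tofu-6, 554.8 for tofu-2, 389.7 for tofu-1, 231.7 for tofu-4, 181.6 for pid-1 and 146.7 for prde-1. These are levels, not differences between genotypes. prg-1 thus stood apart from the factors that make its guides, and the gene of the promoter-binding factor prde-1 came last. The levels of tofu-6 and tofu-2 swap places between the genotypes, with 728.2 and 600.6 per kilobase for tofu-6 and 435.5 and 410.0 for tofu-2 in the rde-3 libraries, against 530.5 and 575.8 for tofu-6 and 649.6 and 724.2 for tofu-2 in the N2 libraries.

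**Figure D4:**
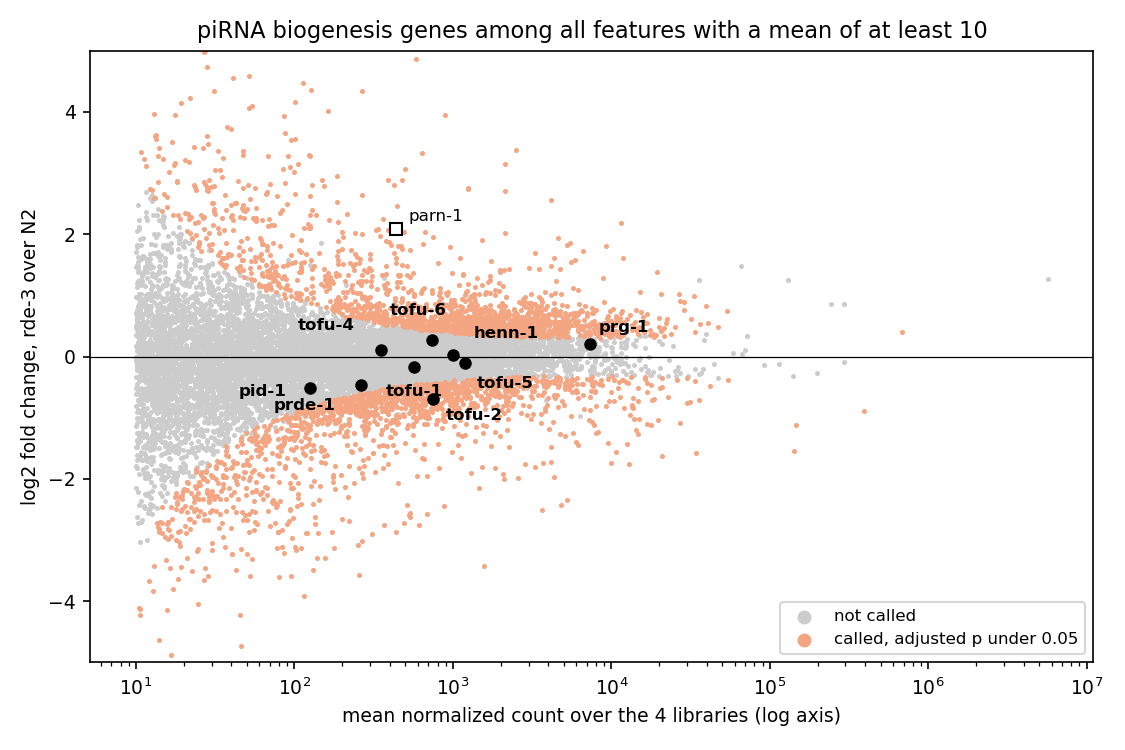
Log2 fold change, rde-3 over N2 (vertical axis), against the mean normalized count (horizontal log axis) for features with a mean of at least 10, with 39 features beyond the axis at 5 not shown. The 9 biogenesis genes (black) lie within the band of features that did not pass (grey), except tofu-2 at -0.70, and parn-1 (open square) lies above it.

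The library kit keeps no record of strand, so reads from overlapping genes cannot be told apart. The genes that overlap members on the other strand had low means in the authors' deposited table, from 3.19 for F18A1.1 beside pid-1 to 36.8 for C02F5.14 beside henn-1 and 64.4 for F07F6.7 beside tofu-6. The longest such overlap was of glb-14 with prde-1, 1889 bases at a mean of 7.01. Overlaps were measured over whole gene spans, introns included, and the exons of prde-1 cover only 1800 bases. On the same strand fbxl-1, with a mean of 595.3, shares 10 bases with henn-1. No annotated gene overlaps tofu-2, and its nearest neighbours within 1000 bases, F20A1.2 and spig-1, had log2 fold changes of -0.20 ± 1.07 and -0.08 ± 0.61 in the authors' deposited table (adjusted p = 0.952 and 0.967). Of the other genes within 1000 bases of a member, ruvb-1, C27H6.9, htp-3, EEED8.15, nhx-2 and F21A3.4 did not pass, and D2030.7 beside prg-1 fell by 0.43 ± 0.14 on the log2 scale (adjusted p = 0.0202) in the authors' deposited table. Beside tofu-5, itself not called, the mitochondrial complex I gene nuo-6 fell by 0.70 ± 0.13 on the log2 scale in the authors' deposited table (adjusted p = 2.32e-06).

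Around the 9 genes, 44 of 45 listed genes of the piRNA pathway were measured, of which 9 rose and 3 fell in the authors' deposited table, with a median log2 fold change of 0.16. That is no larger a share than the 34.0% called among features with a mean of at least 100 (19.1% higher, 14.9% lower), so the counts do not set the pathway apart. Of 8 further genes linked to piRNA transcription 1 passed, the chromatin remodeller gene isw-1 (log2 0.38 ± 0.14, adjusted p = 0.0435), and that call was lost when the values were recentred (adjusted p = 0.105) or the length trend was removed (adjusted p = 0.713). Of 8 further processing genes parn-1 rose and erh-2 fell. Of 27 genes listed as downstream of PRG-1, 7 rose and 2 fell, a share near the same 34.0%. That list, and so the 44, includes the mutated gene mut-2 and the Argonaute gene csr-1, neither of which passed. The risen ones were the nuclear Argonaute gene hrde-1 (log2 0.72 ± 0.13, adjusted p = 1.53e-06), the RNA-dependent RNA polymerase gene rrf-1 (0.59 ± 0.13, adjusted p = 0.000151), and wago-1, mut-7, simr-1, rsd-2 and nrde-2 (0.41 to 0.56, adjusted p at most 0.0124) in the authors' deposited table. The fallen ones were the Argonaute genes wago-4 (log2 -1.27 ± 0.15, adjusted p = 8.46e-16) and wago-3, listed as ppw-2 (-0.67 ± 0.13, adjusted p = 3.19e-06), in the authors' deposited table. After removal of the length trend only parn-1 and hrde-1 of the 9 risen genes passed. The share of all features passing there is not given, so this loss is not read as a trait of the pathway.

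Whole animals were sampled, so fewer germ cells and less RNA per germ cell cannot be told apart, and the germline of the strains differed in its markers. Of 15 oocyte markers 14 were higher and 0 lower in the authors' deposited table, and their summed level was 321938.4 normalized counts in rde-3 and 227184.6 in N2. Of 14 sperm markers 1 was higher and 6 were lower, with a summed level of 1052.2 in rde-3 and 1578.5 in N2, and no marker of either list was listed at 0. Of 16 general germline markers 6 were higher and 4 were lower. Of 11 muscle markers 0 were higher and 11 were lower, with a summed level of 32877.6 in rde-3 and 95235.2 in N2. The part of these shifts in the fall of tofu-2 was not tested.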

How the data were processed

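Poly(A) RNA libraries of 2 rde-3 and 2 N2 samples were made with Nextera XT, per the labels, a kit that does not mark strand. Per the submitters' processing notes Trim Galore 0.4.4, cutadapt 1.14, STAR 2.7.0a, SAMtools 1.3.1 and the builds ce11 and WBcel235 were used. The counting and the model were not given in the sources used here. Of 2 tables that the authors deposited, the larger holds 18638 features and the smaller the 3254 with an adjusted p under 0.05. The signal column of the deposited table is a mean of counts divided by size factors. The deposited log2 column is the fold change, and another value column is its standard error. The score that the authors give equals log2 over its error, a Wald statistic, and the deposited p-value columns equal its two-sided normal p and the Benjamini-Hochberg adjustment over all features.

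Means under 3 (3528 features) were all sums of whole numbers of 4 steps (tolerance 1e-08), 1 per library, and each step was given a genotype by the sign of the fold changes. For means of 10 to 2000, and listed genes up to 8000, sets of 4 read numbers were searched that gave the mean to its printed digits. Only sets within fixed windows around the levels implied by the deposited fold change were searched. A set was kept if a negative binomial fit, with the dispersion that gives the deposited error, gave the deposited fold change within 5e-05. This left 1 set for 10867 of 10887 features in the range (99.8%) and more than 1 for 0. For prg-1, 18 sets gave the mean and 1 also the fold change. limma-voom (limma 3.58.1, R 4.3.3) was run on these reads with the size factors recovered from the means and called 3717 of 10883 features (34.2%). The search and the tests were tried on data simulated from the models assumed here, which does not check whether the authors used the same model. P-values rest on 2 libraries per genotype and on modelled errors, which can exceed the spread between those libraries. For pid-1 the log2 of the deeper over the shallower library was 0.146 in rde-3 and -0.189 in N2, against a deposited error of 0.306. The error in limma-voom also draws on the spread of all features.

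Gene positions, exons and lengths are from the Ensembl release of WBcel235, in which 18014 features (96.7%) were matched. Members and lists were chosen with earlier results of these data known. Named were all 9 genes, the subunits that share a step with them, genes that overlap them or lie within 1000 bases, and genes of the pathway lists that passed. Ratios between subunits were chosen after the values were seen. tofu-3 was not matched. Intervals are 95% normal intervals from the deposited error. No sequence was printed, as none was used here. Python 3.11.15, scipy 1.17.1 and statsmodels 0.14.6 were used.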

Additional observations from a re-analysis of the deposited data

How the results depend on the processing

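tofu-2 kept its call at thresholds of 0.01 and 0.1 on the adjusted p, and with adjustment over genes only or over features with a mean of at least 10. It also did after recentring (a shift of 0.055 on the log2 scale, giving -0.75 and an adjusted p of 5.49e-05). With a deposited adjusted p of 0.000226, and a shift that makes its fall larger, these settings could hardly have changed the call and are no separate support. The length trend at tofu-2 was only -0.029, so its removal, after which the call stayed, was also a weak check. In limma-voom, which was chosen after seeing the data, tofu-2 kept its direction and its call. With the Wald statistic read on 2 degrees of freedom, 0 of the 9 genes passed (adjusted p = 0.682 for tofu-2), and of the other pathway genes 0 were higher and 0 lower. In that setting parn-1, with the largest change of the pathway genes, had the same adjusted p of 0.682. The setting thus cannot separate strong from weak changes, and no conclusion on tofu-2 is drawn from it. Leaving out each library in turn, limma-voom called 1 to 2 of the 9 genes lower and 0 to 1 higher. Of the 41 other pathway genes with recovered reads it called 10 higher with all libraries, 4 without the deeper rde-3 library, 12 without the shallower one, 2 without the deeper N2 library and 9 without the shallower one. Without the length trend 2 of the other pathway genes were higher, against 9, with no share of all features to set beside that count. Small log2 values changed sign. tofu-4 had -0.074 without the deeper N2 library. tofu-5 had 0.054 without the length trend, 0.094 without the shallower rde-3 library and 0.052 without the shallower N2 library. henn-1 had -0.023 after recentring, -0.015 without the deeper rde-3 library and -0.044 without the deeper N2 library. The causes were not tested. The recovered reads carry no replicate number, so the replicate block was fitted under both possible pairings. This was a choice made after seeing the data, and the labels name no batch. Pairing the deeper libraries called 1 of the 9 genes lower and 0 higher, and 5 other pathway genes higher. Pairing the deeper rde-3 with the shallower N2 library called 3 lower (tofu-2, prde-1 and pid-1) and 2 higher (prg-1 and tofu-6, adjusted p = 0.000292 and 0.0177), and 18 other pathway genes higher. tofu-2 passed under both (adjusted p = 0.00447 and 2.93e-07). The deposited error was largest for pid-1 and prde-1, where changes under 1.75-fold and 1.55-fold could not be called.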

Other observations

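The table also lists 390 loci of piRNAs. The libraries were made from poly(A) RNA and keep no strand, so reads at these loci need not come from the piRNAs. Their median mean was 2.80 normalized counts, 200 of them had a mean under 3 and 99 a mean of at least 10, and 5 were higher and 3 lower in the authors' deposited table, where 9.42% of all features were higher and 8.04% lower.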
